A study of Xenopus laevis with 14 samples.

Results

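Control anterior endoderm of the African clawed frog Xenopus laevis was followed from stage NF32 to stage NF36 (Nieuwkoop and Faber stages), an interval in which the foregut forms liver, stomach, intestine and pancreas buds. The arrays were chosen by their labels: all embryos had received messenger RNA for green fluorescent protein (GFP) and none had received Ptf1a. They are 7 of the 14 arrays of the study, 3 at NF32 and 4 at NF36. At the 8-cell stage 400 pg of GFP messenger RNA went into the 2 blastomeres that are dorsal and vegetal, and the other 7 arrays come from embryos that also received 800 pg of Ptf1a messenger RNA. Anterior endoderm was cut out 40 h later at NF32 and 48 h later at NF36, and about 15 explants were pooled for each total RNA preparation. Replicates are labelled biological, and each array is a pool, so the spread between single embryos is not seen. GFP expression is the injection control, so injection and GFP are common to all 7 arrays and no uninjected tissue was compared.

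The vertebrate anterior endoderm is patterned into organ primordia by homeobox, forkhead and GATA transcription factors, and each organ then switches on genes for its own secreted proteins and enzymes. In the frog embryo the endoderm is still full of yolk at these stages, and the gut tube and liver begin to take over from it. The pancreas forms from dorsal and ventral buds marked by Ptf1a, a basic helix-loop-helix factor of pancreatic progenitors and later of acinar cells, while insulin appears first in the dorsal bud. The dissected tissue can carry overlying epidermis, mesoderm and other neighbours, which bring their own genes.

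Each value below is an Affymetrix probe set intensity after quantile normalization of the 7 arrays, which gives all arrays the same distribution. Changes are NF36 minus NF32 on the scale log2(intensity + 16), which understates the fold of dim genes, and are given ± SE. Means are ± SD over 3 arrays at NF32 and 4 at NF36. A gene was called where its Benjamini-Hochberg adjusted p from limma, over 22251 probe sets, was under 0.05. Of 9136 genes, each read by its brightest probe set, 1603 were higher at NF36 (17.5%) and 1245 lower (13.6%), of which 208 (2.28%) rose and 303 (3.32%) fell at least 2-fold. The median change of all genes was 0.0349. This frog has 2 subgenomes, and the endings .L and .S name the subgenome that carries a gene's copy. It was not tested if a given probe set detects a single copy. The deposited arrays of the stages were scaled to different means and the series text names different chips for them, although the probe set identifiers are of the same chip, so stage, chip and batch cannot be told apart in any change given here. A lower value can reflect fewer cells of a type or less RNA per cell, and these cannot be told apart in bulk tissue.

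Arrays of a stage correlated at 0.968 to 0.981 (NF32) and 0.963 to 0.983 (NF36) over all shared probe sets, and arrays of different stages at 0.896 to 0.935. The median SD of a probe set on the log2 scale was 0.112 at NF32 and 0.127 at NF36. NF32 replicate 3 stood apart. Its summed skeletal muscle marker intensity was 5025, against 1765 and 1855 on the other NF32 arrays and 1793 to 2470 at NF36. It was the lowest NF32 array for 18 of the 20 largest rises and the highest for 18 of the 20 largest falls. All 20 rises and all 20 falls remained past the threshold without it. They were chosen as the largest changes past the threshold without overlap between groups, so this says little about other genes. Over all genes, 1039 were higher (11.4%) and 843 lower (9.23%) without this array. List counts without it are given where they differ by more than 1.5 times, and other arrays are named where leaving them out moved a list's larger count that far.

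**Figure D1:**
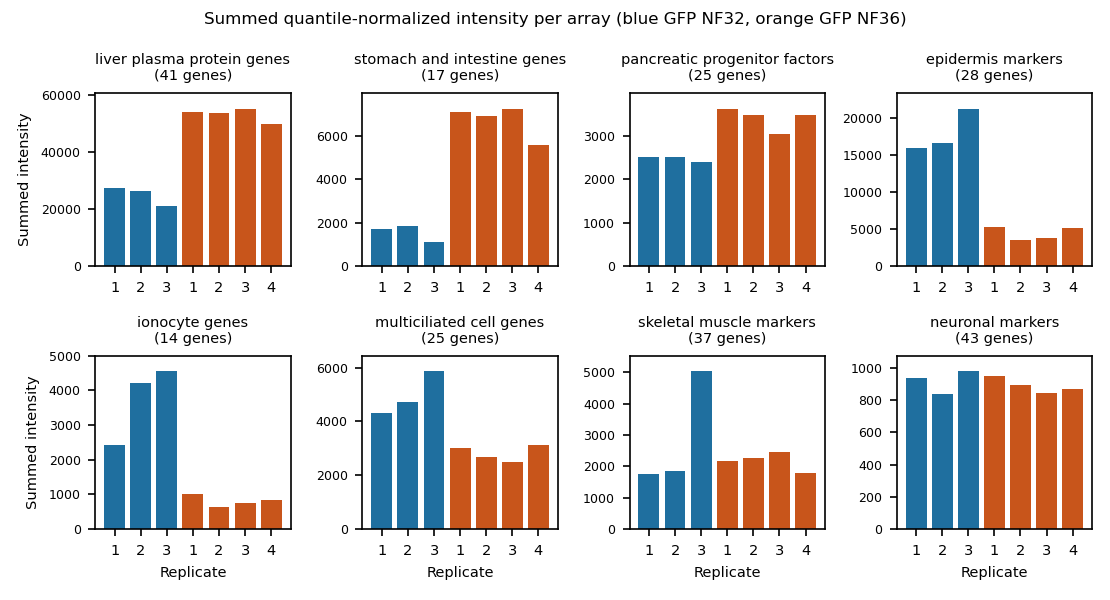
Summed quantile-normalized intensity of the measured genes of 8 lists on each of the 7 GFP arrays (bars, vertical axes from 0 in intensity units, replicate number on the horizontal axis, NF32 in blue and NF36 in orange). Liver plasma protein, stomach and intestine and pancreatic progenitor sums are higher on every NF36 array, epidermis, ionocyte and multiciliated cell sums are lower, and the muscle sum of NF32 replicate 3 is 5025.

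Endoderm factors, which mark the labelled tissue, were measured at both stages. Of 30 measured endoderm transcription factors, 20 were higher and 1 lower at NF36, with a median change of 0.378. On the scale with the offset of 16, none changed 2-fold by its brightest probe set. Without NF32 replicate 3, 11 were higher and 1 lower, with a median of 0.349. foxa1.L, a forkhead factor that opens chromatin in gut endoderm, read 213, 238 and 203 on the NF32 arrays and 543, 404.5, 310.1 and 455 on the NF36 arrays, a change of 0.90 ± 0.17 (adjusted p = 0.00635). All NF36 values lay above all NF32 values, and another foxa1.L probe set changed by 1.09 (adjusted p = 5.85e-04). foxa4.S, a forkhead factor of frog axial tissue and endoderm, changed by 0.72 ± 0.12 (adjusted p = 0.00329), and the GATA factor gata4.S by 0.76 ± 0.12 (adjusted p = 0.00251), although another gata4.S probe set changed by -0.02 (adjusted p = 0.925). cebpa.L, a leucine zipper factor of liver, read 209, 192 and 157 on the NF32 arrays and 377, 281, 405 and 269 on the NF36 arrays and changed by 0.78 ± 0.16 (adjusted p = 0.0102). Its copy cebpa.S was dimmer, at a mean of 49.8 ± 15.7 at NF32 and 38.1 ± 7.67 at NF36, with a change of -0.26 ± 0.18 (adjusted p = 0.307), not past the threshold. The orphan nuclear receptor nr2f2.L changed by 0.70 ± 0.12 (adjusted p = 0.00486). The single fall was pparg.L, a nuclear receptor of lipid storage, at -0.57 ± 0.12 (adjusted p = 0.0113), and its other probe set changed by 0.11 (adjusted p = 0.549). Calls of foxa4.L (0.32 ± 0.09 (adjusted p = 0.0311)) and gata5.S (0.38 ± 0.09 (adjusted p = 0.0201)) were each lost when some single arrays were dropped (5 and 2 of 7 such fits), with adjusted p up to 0.112 without NF32 replicate 3 and 0.0686 without NF32 replicate 1.

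Genes of stomach and intestine were higher at NF36 on most members. Of 17 measured, 14 were higher and 2 lower, with a median change of 1.18, and 10 rose at least 2-fold. Over the same interval the summed epidermis markers were lower, at 15970 to 21260 on the NF32 arrays and 3540 to 5337 on the NF36 arrays, and their part in the rises of gut and liver genes was not tested. fabp2 and rbp2 are enterocyte carriers, of fatty acids and of retinol. fabp2.S read 19.4, 21.8 and 3.46 on the NF32 arrays and 319, 489, 659 and 324 on the NF36 arrays, a change of 3.90 ± 0.31 (adjusted p = 1.78e-04), the largest of the 20 rises that were named by size. NF32 replicate 3 was far below the other NF32 arrays. Its copy fabp2.L read 406, 546 and 105 on the NF32 arrays and 2269, 2134, 1998 and 1664 on the NF36 arrays and changed by 2.72 ± 0.46 (adjusted p = 0.00411). rbp2.L read 199, 187 and 51.2 on the NF32 arrays and 1553, 1654, 1816 and 1261 on the NF36 arrays, a change of 3.46 ± 0.38 (adjusted p = 5.94e-04), again with the lowest value on NF32 replicate 3. The apolipoprotein genes apoa4.S and apoa4.L, whose product travels on lipid particles that leave the intestine in mammals, changed by 2.99 ± 0.36 (adjusted p = 8.76e-04) and 2.97 ± 0.30 (adjusted p = 4.15e-04). apoa4.L was at 615 on NF36 replicate 3 and 279.9 to 301 on the other NF36 arrays. vil1.S, the microvillus protein villin, had means of 30.3 ± 11.9 at NF32 and 146.5 ± 19.9 at NF36 and changed by 1.84 ± 0.18 (adjusted p = 3.92e-04).

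The stomach and intestine list also holds cdx2.L and sox2.L, named after their values were seen. cdx2.L, the caudal homeobox factor of intestine, read 13.7, 14.6 and 17.5 on the NF32 arrays and 47.5, 50.5, 48 and 42.8 on the NF36 arrays, a change of 1.02 ± 0.08 (adjusted p = 1.53e-04). sox2.L, a factor of the foregut and stomach, changed by 1.18 ± 0.14 (adjusted p = 7.58e-04). The retinaldehyde dehydrogenase aldh1a1.L, which makes retinoic acid, read 139, 191 and 111.5 on the NF32 arrays and 652.5, 451, 299 and 426 on the NF36 arrays and changed by 1.51 ± 0.26 (adjusted p = 0.00399), and its copy aldh1a1.S by 0.50 ± 0.18 (adjusted p = 0.0713), not past the threshold. The 2 falls were of a surface antigen and a glucose transporter. gpa33.L, a surface antigen of intestine, changed by -1.16 ± 0.21 (adjusted p = 0.00544). slc2a2.L, the glucose carrier of liver and pancreas beta cells, changed by -0.68 ± 0.18 (adjusted p = 0.0236), a call lost in 2 of 7 fits that left out 1 array, with adjusted p up to 0.0853 without NF32 replicate 2.

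Several other genes among the 20 largest rises are best known from gut or liver lining, though no list held them. The LIM protein gene crip1.S read 46.1, 37.9 and 16.5 on the NF32 arrays and 325, 484, 411.5 and 275 on the NF36 arrays and changed by 3.00 ± 0.25 (adjusted p = 2.15e-04). lgals4.1.L, a galectin of gut epithelium, had means of 39.7 ± 17.9 at NF32 and 393.5 ± 86 at NF36, and anxa13.L, an annexin of gut epithelium, of 52.5 ± 37.7 at NF32 and 392 ± 65.5 at NF36. ctse.L, the aspartic protease cathepsin E of stomach mucosa in mammals, read 34, 19.2 and 17.6 on the NF32 arrays and 235, 272, 243 and 321 on the NF36 arrays, a change of 2.85 ± 0.16 (adjusted p = 8.49e-05). anxa13.L was at 9.07 on NF32 replicate 3 and at 76.3 and 72.1 on the other NF32 arrays. XB5789557.L, which has no gene name in the annotation used, changed by 2.86 ± 0.23 (adjusted p = 2.04e-04). The sulfate carrier slc26a1.L, a transporter of liver, kidney and gut, changed by 2.70 ± 0.15 (adjusted p = 8.49e-05).

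Nearly all measured liver plasma protein genes rose. Of 41 measured, 38 were higher and 0 lower, 28 by at least 2-fold, with a median change of 1.27. Without NF32 replicate 3, which was the lowest NF32 array for 33 of the 41 genes, 37 were higher and the median was 1.14. Summed over the 41 genes, intensity was 27530, 26340 and 20950 at NF32 and 54180, 53560, 55200 and 49710 at NF36. ttr.L, the thyroid hormone carrier transthyretin, read 685.5, 558 and 130.4 on the NF32 arrays and 2599, 2803, 2811 and 2543 on the NF36 arrays and changed by 2.79 ± 0.47 (adjusted p = 0.00411). fgb.L, the fibrinogen beta chain of clots, read 48.9, 54.1 and 7.11 on the NF32 arrays and 345, 369, 529 and 289 on the NF36 arrays and changed by 3.05 ± 0.38 (adjusted p = 0.00108). tf.S, the iron carrier transferrin, read 67.1, 45.2 and 9.27 on the NF32 arrays and 505, 245, 227 and 426.5 on the NF36 arrays and changed by 2.79 ± 0.43 (adjusted p = 0.00266), while its copy tf.L read 793, 281 and 235 on the NF32 arrays and 950.4, 631, 563 and 878 on the NF36 arrays and changed by 0.94 ± 0.39 (adjusted p = 0.107), not past the threshold. gc.S, the vitamin D binding protein of plasma, is not on the list and had means of 264 ± 159 at NF32 and 1571 ± 405 at NF36 and changed by 2.67 ± 0.42 (adjusted p = 0.0028). rbp4.L and rbp4.S, the retinol carrier of blood, changed by 2.13 ± 0.19 (adjusted p = 2.77e-04) and 1.19 ± 0.16 (adjusted p = 0.00133). apob.S, the structural protein of lipoprotein particles, changed by 1.53 ± 0.20 (adjusted p = 0.00122). The 3 members not past the threshold were tf.L, the protease inhibitor a2m.S at 0.27 ± 0.10 (adjusted p = 0.0733), and fetuin ahsg.L at 0.59 ± 0.70 (adjusted p = 0.563), both named after their values were seen.

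**Figure D2:**
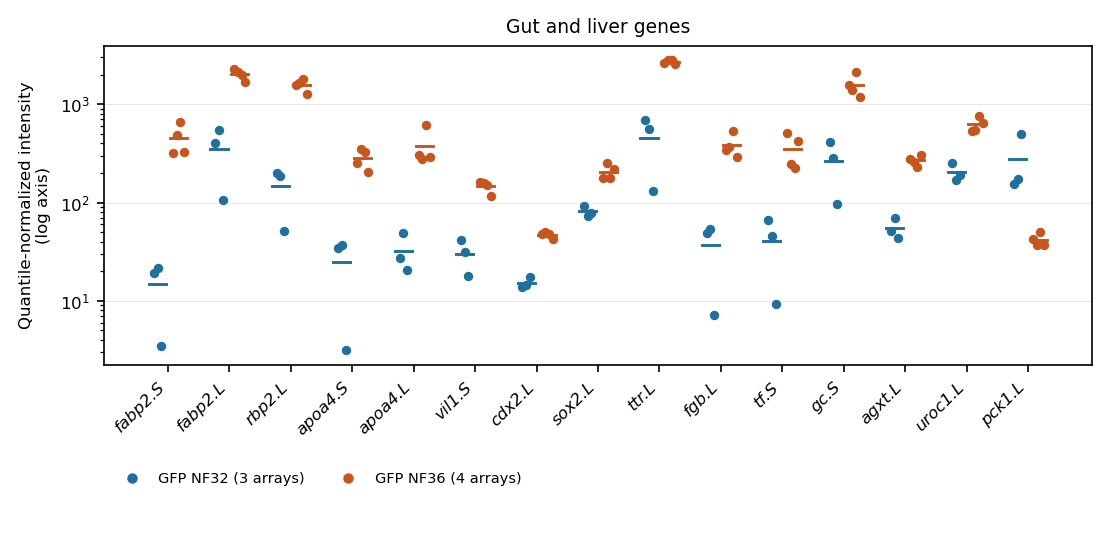
Quantile-normalized intensity (vertical log axis) of 15 gut and liver genes on the 3 GFP NF32 arrays (blue points) and 4 GFP NF36 arrays (orange points); short lines are group means. Means of fabp2.S are 14.9 at NF32 and 448 at NF36; pck1.L alone is lower at NF36.

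Liver enzyme genes changed in both directions, with a median change of 0.288. Of 21 measured, 10 were higher (47.6%) and 5 lower (23.8%), beside 17.5% and 13.6% of all genes. Without NF32 replicate 3, 9 were higher and 3 lower, beside 11.4% and 9.23% of all genes. Only 2 were lower without NF32 replicate 2 or NF36 replicate 2, and 3 without NF36 replicate 3 or 4. Amino acid enzymes were among the rises. agxt.L, the alanine-glyoxylate aminotransferase of peroxisomes, read 51.6, 69.8 and 43.2 on the NF32 arrays and 279.8, 259, 229 and 306 on the NF36 arrays and changed by 2.02 ± 0.14 (adjusted p = 1.31e-04). uroc1.L, urocanate hydratase of histidine breakdown, changed by 1.55 ± 0.16 (adjusted p = 5.14e-04), and kmo.L, kynurenine 3-monooxygenase of tryptophan breakdown, by 1.48 ± 0.12 (adjusted p = 1.78e-04). The urea cycle enzyme ass1.S changed by 1.36 ± 0.18 (adjusted p = 0.00125), the tyrosine pathway enzyme hgd.L by 1.16 ± 0.18 (adjusted p = 0.00263) and the cytochrome cyp1a1.L by 1.36 ± 0.22 (adjusted p = 0.00315). Glucose synthesis enzymes were among the falls. pck1.L, the phosphoenolpyruvate carboxykinase of the cytosol, read 155.5, 172.5 and 495 on the NF32 arrays and 43, 37.3, 49.7 and 37.3 on the NF36 arrays and changed by -2.14 ± 0.35 (adjusted p = 0.00323), and every NF36 array was below every NF32 array. pck1.S changed by -1.45 ± 0.42 (adjusted p = 0.0339), past the threshold in 2 of 7 fits that left out 1 array, with adjusted p up to 0.0924 without NF32 replicate 2. pck2.L, the enzyme's mitochondrial form, changed by -0.59 ± 0.12 (adjusted p = 0.00784). g6pc1.1.S, glucose-6-phosphatase, changed by -1.12 ± 0.30 (adjusted p = 0.0274), and the call was lost in 3 of 7 fits, with adjusted p up to 0.0955 without NF32 replicate 3. Its copy g6pc1.1.L changed by -0.95 ± 0.33 (adjusted p = 0.064), not past the threshold. The arginase gene arg1.L changed by -1.37 ± 0.43 (adjusted p = 0.0452), with NF36 replicate 1 at 116 beside 20.2 to 33.2 on the other 3, and its call was lost in 6 of 7 fits, with adjusted p up to 0.132 without NF32 replicate 3.

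Of the 20 largest rises, liver or kidney enzymes made up a further group outside the lists. uox.L, urate oxidase, read 19.3, 18.9 and 24.1 on the NF32 arrays and 190.4, 281.5, 184 and 347.5 on the NF36 arrays and changed by 2.82 ± 0.21 (adjusted p = 1.47e-04). adh1c.S, an alcohol dehydrogenase, changed by 2.92 ± 0.13 (adjusted p = 5.65e-05). dpyd.L, dihydropyrimidine dehydrogenase of uracil breakdown, changed by 2.76 ± 0.23 (adjusted p = 2.05e-04), and ugt1a6.S, a glucuronosyltransferase that conjugates foreign compounds, by 2.69 ± 0.21 (adjusted p = 1.65e-04).

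Lipid carriers and lipid breakdown genes rose on most members: of 32 measured, 23 were higher and 2 lower, with a median change of 0.594, and 8 rose 2-fold. The list shares fabp2, apoa4 and apob with the gut and liver lists. dgat2.L, which makes triglyceride, read 14.5, 26.7 and 16.8 on the NF32 arrays and 123, 209.9, 193 and 179 on the NF36 arrays and changed by 2.44 ± 0.18 (adjusted p = 1.53e-04). mogat2.2.L, an acyltransferase that remakes triglyceride in enterocytes, had means of 37.3 ± 24.5 at NF32 and 291 ± 68.1 at NF36 and changed by 2.60 ± 0.33 (adjusted p = 0.00103). Of 11 genes of intestinal lipid absorption, a list chosen after the values were seen, 11 were higher and 10 rose 2-fold, with a median of 2.61. The falls were slc27a2.L, a fatty acid carrier and acyl-CoA synthetase, at -2.77 ± 0.21 (adjusted p = 1.66e-04), and acsl1.L, a long-chain acyl-CoA synthetase, at -0.67 ± 0.09 (adjusted p = 0.00144). slc27a2.L read 126, 223 and 239 on the NF32 arrays and 17.9, 10.4, 10.3 and 19.2 on the NF36 arrays, with all NF36 arrays below all NF32 arrays.

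Retinoic acid and foreign compound genes changed in both directions. Of 20 retinoic acid genes, 8 were higher (40%) and 7 lower (35%), beside 17.5% and 13.6% of all genes. The retinol carriers and aldh1a1.L rose as above, and aldh1a2.L, the main retinaldehyde dehydrogenase of the embryo, changed by 0.62 ± 0.07 (adjusted p = 7.64e-04), although 3 of its 5 other probe sets were not past the threshold. The receptor genes went apart, rara.L at 0.66 ± 0.10 (adjusted p = 0.00274) and rarg.S at -0.96 ± 0.12 (adjusted p = 0.00116), the latter on a probe set whose identifier marks it as able to read several transcripts. The retinoic acid hydroxylases cyp26a1.L and cyp26a1.S, which break retinoic acid down, changed by -0.69 ± 0.13 (adjusted p = 0.00751) and -0.49 ± 0.11 (adjusted p = 0.0126), and another cyp26a1.S probe set changed by -0.14, not past the threshold. Copies of the retinol dehydrogenase rdh10 moved opposite ways, rdh10.L at 0.52 ± 0.09 (adjusted p = 0.00486) and rdh10.S at -0.97 ± 0.16 (adjusted p = 0.00348). rdh10.L read 191, 179 and 177 on the NF32 arrays and 309, 249, 266 and 249.9 on the NF36 arrays and rdh10.S read 62.7, 58.5 and 61 on the NF32 arrays and 37.4, 20.4, 21.8 and 16.3 on the NF36 arrays. crabp2.L, the cellular carrier of retinoic acid, changed by -0.90 ± 0.17 (adjusted p = 0.00695), but its 3 other probe sets changed by -0.23 to 0.11, not past the threshold. cyp26c1.S, another hydroxylase of retinoic acid, changed by -1.23 ± 0.28 (adjusted p = 0.014), with adjusted p of 0.0538 without NF32 replicate 1, and its 2 other probe sets were not past the threshold.

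Of 32 genes of foreign compound and retinoid handling, 14 were higher (43.8%) and 8 lower (25%), beside 17.5% and 13.6% of all genes. Without NF32 replicate 3, 13 were higher and 3 lower, beside 11.4% and 9.23% of all genes. The share lower was then near that of all genes. Without NF32 replicate 2, 4 were lower, and 5 without NF36 replicate 2 or 4. ephx2.L, epoxide hydrolase, read 143, 136 and 116 on the NF32 arrays and 716, 532, 530.3 and 449.9 on the NF36 arrays and changed by 1.94 ± 0.15 (adjusted p = 1.66e-04). The glutathione transferases differed: gstt1.L read 922, 562 and 119 on the NF32 arrays and 1762, 1818, 2177 and 1694 on the NF36 arrays, a wide NF32 range, and changed by 2.16 ± 0.56 (adjusted p = 0.024) (5 of 7 fits without 1 array past the threshold, adjusted p up to 0.0551 without NF36 replicate 3). gstm1.S changed by 1.52 ± 0.22 (adjusted p = 0.00194). gstp1.L changed by -1.35 ± 0.35 (adjusted p = 0.0227), and of its 4 other probe sets, which changed by -1.69 to 1.09, 2 were past the threshold. Its call was lost in 2 of 7 fits, with adjusted p up to 0.0613 without NF32 replicate 3. nqo1.L, a quinone reductase, read 634, 965 and 1180 on the NF32 arrays and 179, 117, 146 and 149 on the NF36 arrays and changed by -2.49 ± 0.21 (adjusted p = 2.15e-04).

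Most measured pancreatic progenitor factors were higher at NF36. On the scale with the offset of 16, which understates the fold of dim genes, 1 of them rose at least 2-fold. This list shares members with the endoderm factor list, foxa1 and gata4 among them. Of 25 measured, 16 were higher and 2 lower, with a median change of 0.414, and without NF32 replicate 3 10 were higher and 1 lower, with a median of 0.353. ptf1a itself, the gene whose messenger RNA the other embryos received and these did not, read 15, 11.9 and 5.25 on the NF32 arrays and 29.5, 39.7, 37 and 34.3 on the NF36 arrays. It changed by 0.95 ± 0.14 (adjusted p = 0.00189) and the NF36 arrays lay above all NF32 arrays. nkx6-2.L, a homeobox factor of the pancreas and neural tube, moved most: it read 11.7, 9.66 and 5 on the NF32 arrays and 128.5, 159.7, 153.5 and 151 on the NF36 arrays, a change of 2.73 ± 0.12 (adjusted p = 4.67e-05), on a probe set that may read several transcripts. Another nkx6-2.L probe set has values at NF36 alone and was far dimmer, with a mean of 12.1 in deposited intensity. mnx1.L, a homeobox factor of the dorsal pancreas and motor neurons, read 14, 11.3 and 12.3 on the NF32 arrays and 32.4, 31.4, 25.6 and 37.3 on the NF36 arrays and changed by 0.74 ± 0.10 (adjusted p = 0.0012), while mnx1.S changed by 0.26 ± 0.12 (adjusted p = 0.135), not past the threshold, although its other probe sets changed by 0.35 and 0.41 and passed. nr5a2, a nuclear receptor of acinar cells and liver, was higher on both copies, nr5a2.S by 0.94 ± 0.22 (adjusted p = 0.016) and nr5a2.L by 0.34 ± 0.08 (adjusted p = 0.0188). Each lost its call in 2 of 7 fits without 1 array, with adjusted p up to 0.0571 without NF32 replicate 2 and 0.0724 without NF32 replicate 3.

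hnf4a.S, a liver and pancreas nuclear receptor, changed by 0.54 ± 0.12 (adjusted p = 0.011), prox1.L, a homeobox factor of early liver and pancreas, by 0.54 ± 0.10 (adjusted p = 0.00718), and tle4.S, a corepressor, by 0.46 ± 0.08 (adjusted p = 0.0049). gata6.S changed by 0.34 ± 0.08 (adjusted p = 0.0131) while gata6.L changed by 0.08 ± 0.08 (adjusted p = 0.481) and gata4.L by 0.21 ± 0.15 (adjusted p = 0.325), the last 2 not past the threshold. The Notch target genes hes1.L and hes1.S, repressors that hold progenitors undifferentiated, changed by 0.41 ± 0.11 (adjusted p = 0.0247) and 0.52 ± 0.14 (adjusted p = 0.0251), and rbpj.S, the DNA-binding factor of the Notch pathway and a partner of Ptf1a, by 0.49 ± 0.07 (adjusted p = 0.00151). Other probe sets of rbpj.S changed by -0.18 and 0.18, and those of hnf4a.S, gata6.S and foxa2.L by 0.20, 0.08 and 0.20, none past the threshold. hes1.L, hes1.S, foxa1.S (0.32 ± 0.09 (adjusted p = 0.0392)) and foxa2.L (0.52 ± 0.14 (adjusted p = 0.0274)) had their highest adjusted p, 0.0884, 0.073, 0.134 and 0.0958, without NF32 replicate 3. These genes were past the threshold in 4, 3, 2 and 3 of 7 fits that left out 1 array. The 2 falls were of sox9.S, an HMG factor of the progenitor pool, and meis2.L, a homeobox partner factor. sox9.S read 136, 94.5 and 133 on the NF32 arrays and 82.5, 92.7, 62.3 and 71.1 on the NF36 arrays, a change of -0.56 ± 0.15 (adjusted p = 0.0274). It was past the threshold in 3 of 7 fits that left out 1 array, with adjusted p up to 0.0947 without NF32 replicate 3. Its copy sox9.L changed by -0.22 ± 0.09 (adjusted p = 0.107), not past the threshold. meis2.L changed by -0.54 ± 0.12 (adjusted p = 0.0117). Also not past the threshold were hhex.L at -0.16 ± 0.12 (adjusted p = 0.349), meis1.S at 0.02 ± 0.10 (adjusted p = 0.877) and isl1.S at -0.16 ± 0.09 (adjusted p = 0.228).

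**Figure D3:**
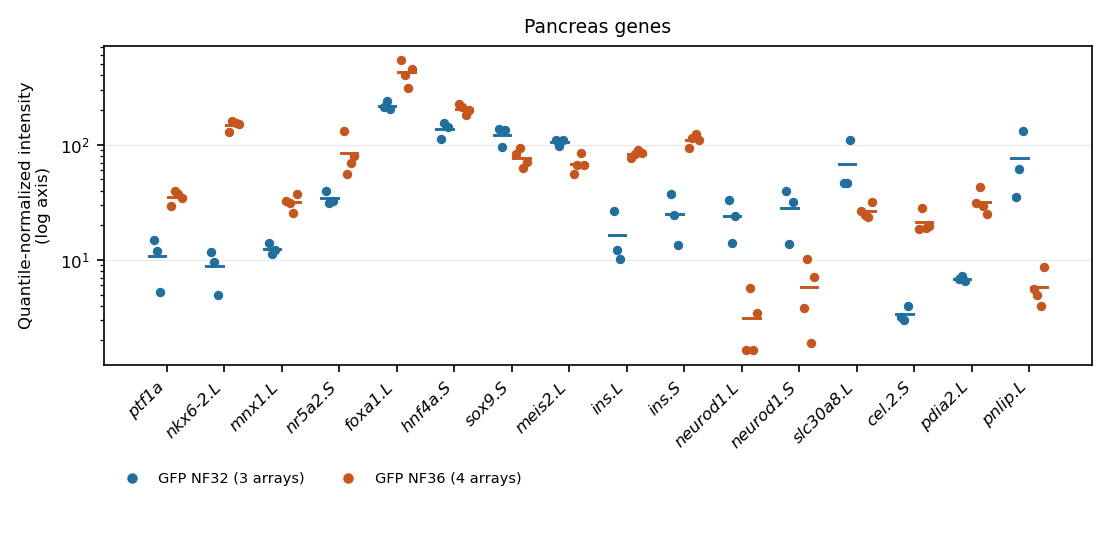
Quantile-normalized intensity (vertical log axis) of 16 pancreas genes on the 3 GFP NF32 arrays (blue points) and 4 GFP NF36 arrays (orange points); short lines are group means. ptf1a has means of 10.7 and 35.1, nkx6-2.L of 8.78 and 148, and the 2 neurod1 copies are lower at NF36.

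Insulin rose on both copies. ins.L read 26.6, 12.3 and 10.2 on the NF32 arrays and 76.8, 82.2, 89.7 and 85.1 on the NF36 arrays, a change of 1.65 ± 0.16 (adjusted p = 3.63e-04), and ins.S read 37.1, 24.6 and 13.4 on the NF32 arrays and 93.3, 114.5, 124.5 and 109 on the NF36 arrays, a change of 1.66 ± 0.19 (adjusted p = 6.66e-04). NF36 arrays of both lay within a narrow range above all NF32 arrays. Over the 20 endocrine pancreas and gut hormone genes, 6 were higher (30%) and 4 lower (20%), beside 17.5% and 13.6% of all genes. Their median change was 0.0395, but it was -0.08 under mean scaling, 0.16 with median centring, 0.155 with an offset of 1 and 0.54 without dim probe sets, where 2 were higher and 2 lower. The other higher members are prohormone processing and granule genes. cpe.L, carboxypeptidase E, changed by 0.65 ± 0.08 (adjusted p = 8.57e-04), pcsk2.L, a prohormone convertase, by 0.41 ± 0.06 (adjusted p = 0.00287), scg2.S by 0.59 ± 0.08 (adjusted p = 0.00193) and scg3.L by 0.50 ± 0.07 (adjusted p = 0.00184), the last 2 granins of secretory granules. pcsk2.L read 1.03, 1.76 and 0.886 on the NF32 arrays and 6.16, 6.79, 6.75 and 7.57 on the NF36 arrays. The means of scg2.S were 3.524 at NF32 and 13.3 at NF36, and those of scg3.L 1.621 and 8.895. These pcsk2.L, scg2.S and scg3.L values all lie under the offset of 16. neurod1, a basic helix-loop-helix factor of endocrine precursors and neurons, fell on both copies. neurod1.L read 33.4, 14.1 and 24 on the NF32 arrays and 1.64, 5.7, 1.64 and 3.43 on the NF36 arrays and changed by -1.04 ± 0.16 (adjusted p = 0.00296), and neurod1.S changed by -0.99 ± 0.22 (adjusted p = 0.0128). chga.L, chromogranin A, changed by -0.58 ± 0.11 (adjusted p = 0.00579). slc30a8.L, a zinc carrier of insulin granules, read 46.9, 46.1 and 109 on the NF32 arrays and 26.8, 24.7, 23.4 and 31.7 on the NF36 arrays, with NF32 replicate 3 well above the others. It changed by -0.89 ± 0.24 (adjusted p = 0.0252). It was past the threshold in 5 of 7 fits that left out 1 array, with adjusted p up to 0.0577 without NF36 replicate 2. The 10 members not past the threshold were chga.S, cpe.S, insm1.L, isl1.S, pax6.L, scg2.L, scg5.L, sst.1.L, sst.1.S and syt4.L, with changes of -0.50 to 0.27. The somatostatin gene sst.1.L was spread, at 63.2, 12.8 and 56.3 on the NF32 arrays and 23.1, 39.7, 22.6 and 10.7 on the NF36 arrays.

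Exocrine genes were dim: summed over 9 genes, intensity was 135.2, 157.7 and 216.7 at NF32 and 173.6, 198.8, 162 and 186.6 at NF36. Of the 9 measured at both stages, 4 were higher and 1 lower, with a median change of 0.29 that ran from 0.1 with an offset of 64 to 0.75 with an offset of 1, and without dim probe sets 1 was higher and 0 lower. pdia2.L, a protein disulfide isomerase of the pancreas, read 6.8, 7.19 and 6.59 on the NF32 arrays and 31.1, 42.5, 29.6 and 25.2 on the NF36 arrays and changed by 1.06 ± 0.12 (adjusted p = 5.87e-04). cel.2.S and cel.1.L, bile salt-dependent lipases, changed by 0.94 ± 0.10 (adjusted p = 5.40e-04) and 0.59 ± 0.10 (adjusted p = 0.00414), and cpa1.L, a carboxypeptidase, by 0.58 ± 0.10 (adjusted p = 0.00408), from 0.586, 1.87 and 2.84 on the NF32 arrays and 9.84, 10, 7.98 and 14.6 on the NF36 arrays. pnlip.L, pancreatic lipase, went the other way. It read 35, 62.1 and 132 on the NF32 arrays and 5.54, 4.94, 3.94 and 8.63 on the NF36 arrays and changed by -1.95 ± 0.31 (adjusted p = 0.0029), with the highest value on NF32 replicate 3. ctrb2.L, ctrl.L, pnliprp1.S and prss2.L changed by 0.03 to 0.29 and were not past the threshold. A further 12 probe sets of 9 exocrine genes have deposited values at NF36 alone and were not compared: the means of prss1.L, amy2b.S, cel.2.L, prss3.S, cpb1.S, cela2a.L and amy2a.L were 0.2 to 4.125 in deposited intensity, while ctrc.L and ctrb1.L were at 21.8 and 18.5.

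Part of the energy, lysosome and secretory lists was higher at NF36, and most respiratory chain and secretory genes did not pass the threshold. Of 81 mitochondrial respiratory chain genes, 34 were higher and 0 lower, with a median change of 0.244, and 16 were higher without NF32 replicate 3, 15 without NF32 replicate 1, 19 without NF36 replicate 2 and 20 without NF36 replicate 4. sdha.S, a subunit of succinate dehydrogenase, read 219.8, 238 and 224 on the NF32 arrays and 379, 391.5, 352.5 and 360 on the NF36 arrays and changed by 0.67 ± 0.07 (adjusted p = 5.07e-04), and atp5mc1.S, a subunit of ATP synthase, changed by 0.56 ± 0.11 (adjusted p = 0.00647). Of 30 lysosomal and yolk breakdown genes, 15 were higher and 2 lower, with a median of 0.305, and 7 and 0 without NF32 replicate 3 and 9 and 0 without NF36 replicate 2. The membrane proteins lamp1.L and lamp2.S changed by 0.73 ± 0.14 (adjusted p = 0.00796) and 0.94 ± 0.16 (adjusted p = 0.00377), the cathepsin gene ctsz.S by 0.95 ± 0.11 (adjusted p = 7.47e-04) and lgmn.L, the protease legumain, by 1.52 ± 0.18 (adjusted p = 7.72e-04), although another lgmn.L probe set changed by -0.25 (adjusted p = 0.22). Of 95 secretory pathway genes, 31 were higher and 1 lower, with a median of 0.165, and 13 and 1 without NF32 replicate 3, where 11.4% of all genes were higher. sec63.S, a subunit of the protein channel into the endoplasmic reticulum, read 544, 531 and 489 on the NF32 arrays and 936, 846, 844.5 and 828 on the NF36 arrays and changed by 0.71 ± 0.08 (adjusted p = 5.35e-04).

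Genes of the outer cell layer and its relatives fell together. Of 28 epidermis markers, 0 were higher and 24 lower at NF36, 22 by at least 2-fold, with a median change of -1.75, and without NF32 replicate 3, which was the highest NF32 array for 20 of the 28, 24 were lower with a median of -1.57. Summed over the 28 genes, intensity was 15970, 16690 and 21260 at NF32 and 5337, 3540, 3760 and 5211 at NF36. krt70.S, a keratin of embryonic epidermis, read 2079, 1938 and 2584 on the NF32 arrays and 262, 123, 166 and 383 on the NF36 arrays and changed by -3.25 ± 0.33 (adjusted p = 4.22e-04). krt70.L, its copy, changed by -2.82 ± 0.14 (adjusted p = 8.49e-05). krt12.4.L read 2599, 2730 and 2916 on the NF32 arrays and 478, 224, 345 and 638 on the NF36 arrays and changed by -2.75 ± 0.30 (adjusted p = 5.54e-04), and krt12.5.S, another keratin, changed by -2.60 ± 0.15 (adjusted p = 8.50e-05). evpl.L, envoplakin, which links keratin to cell junctions, changed by -2.72 ± 0.21 (adjusted p = 1.52e-04). A pair of further members was picked after their values were seen: grhl3.S, a grainyhead factor of epidermal barrier formation, at -2.14 ± 0.12 (adjusted p = 8.56e-05), and ppl.L, periplakin, at -2.47 ± 0.17 (adjusted p = 1.07e-04).

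Falls were also seen in genes of ionocytes and multiciliated cells, types that sit in frog embryonic epidermis, on lists chosen after the values were seen. Of 14 ionocyte genes, 12 were lower and 0 higher, with a median of -2.65, and 11 were lower without NF32 replicate 3. foxi1.L, the forkhead factor of ionocytes, also on the epidermis list and named after its values were seen, had means of 134 ± 43 at NF32 and 10.5 ± 3.59 at NF36 and changed by -2.47 ± 0.21 (adjusted p = 2.13e-04). The proton pump subunits atp6v1b1.L, atp6v1al.L, atp6v1g3.L and atp6v0d2.L changed by -3.17 ± 0.29 (adjusted p = 2.98e-04), -3.23 ± 0.24 (adjusted p = 1.47e-04), -2.88 ± 0.29 (adjusted p = 4.14e-04) and -2.67 ± 0.25 (adjusted p = 2.97e-04). atp6v1b1.L, which is also on the epidermis list, read 219, 429 and 523 on the NF32 arrays and 34.4, 18.4, 19.4 and 37.9 on the NF36 arrays, with NF32 replicate 1 the lowest of its stage. The anion exchangers slc26a4l.L and slc26a4.3.L changed by -3.51 ± 0.32 (adjusted p = 2.89e-04) and -2.91 ± 0.20 (adjusted p = 1.24e-04). Of 18 V-ATPase subunit genes found in most tissues, a list also chosen after values were seen, 1 was higher and 9 lower, with a median of -0.472, and 0 and 7 without NF32 replicate 3. ca2.S, a carbonic anhydrase on the ionocyte and red blood cell lists, changed by -1.39 ± 0.26 (adjusted p = 0.00582) and ca2.L by -0.31 ± 0.19 (adjusted p = 0.25), the latter not past the threshold.

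Of 25 multiciliated cell genes, 23 were lower and 0 higher, 13 by 2-fold, with a median of -1.05, and without NF32 replicate 3, the highest NF32 array for 23 of the 25, 18 were lower with a median of -0.83. tekt3.L, a tektin of the ciliary axoneme, read 132, 210.4 and 287 on the NF32 arrays and 35.3, 15.9, 17.7 and 29.7 on the NF36 arrays and changed by -2.44 ± 0.26 (adjusted p = 5.10e-04). tekt2.S changed by -2.22 ± 0.22 (adjusted p = 4.03e-04), enkur.L by -1.84 ± 0.18 (adjusted p = 4.09e-04) and rsph1.L, a radial spoke protein, by -1.83 ± 0.20 (adjusted p = 5.33e-04). foxj1.S, the forkhead factor of motile cilia, picked after its values were seen, changed by -1.39 ± 0.14 (adjusted p = 3.63e-04). Summed multiciliated intensity was 4297, 4725 and 5856 at NF32 and 3029, 2675, 2491 and 3131 at NF36.

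**Figure D4:**
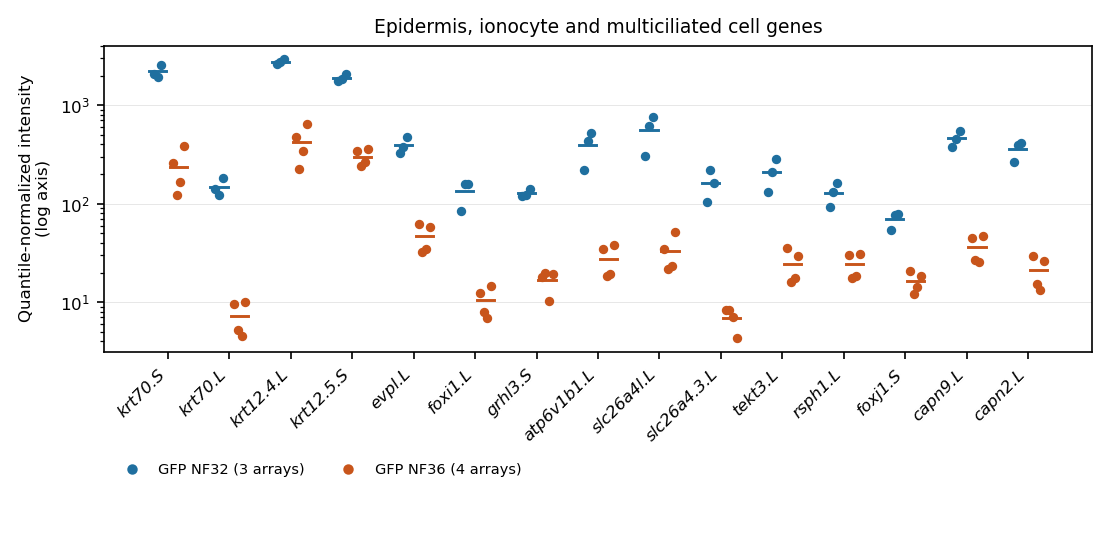
Quantile-normalized intensity (vertical log axis) of 15 genes on the 3 GFP NF32 arrays (blue points) and 4 GFP NF36 arrays (orange points). Short lines are group means. The genes are from the epidermis, ionocyte and multiciliated cell lists, except capn9.L and capn2.L, which are on none of the lists. NF36 points lie below NF32 points, which for the genes among the 20 largest falls was part of how they were chosen.

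Other genes among the 20 largest falls are on none of the lists. The calpain protease genes capn2.L and capn9.L changed by -3.34 ± 0.20 (adjusted p = 9.55e-05) and -3.20 ± 0.19 (adjusted p = 9.14e-05). atp1b2.L, a sodium pump subunit, read 637, 948 and 1374 on the NF32 arrays and 123.5, 57.8, 75.9 and 122 on the NF36 arrays and changed by -3.16 ± 0.30 (adjusted p = 3.50e-04). hal.1.L, histidine ammonia-lyase, changed by -2.88 ± 0.19 (adjusted p = 1.13e-04), vill.S, a villin-like protein, by -2.79 ± 0.17 (adjusted p = 9.55e-05) and gnb3.L, a G protein subunit, by -2.99 ± 0.14 (adjusted p = 5.65e-05). htr3a.L, a serotonin-gated channel subunit, changed by -2.89 ± 0.23 (adjusted p = 1.67e-04), otogl2.L by -3.04 ± 0.24 (adjusted p = 1.65e-04) (its other probe set by -1.65, adjusted p = 0.0555) and tll2l.L by -3.11 ± 0.34 (adjusted p = 5.50e-04). Genes that the annotation gives only a code rather than a name, LOC398451, MGC68910 and XB5922676.S, changed by -3.44 ± 0.20 (adjusted p = 9.55e-05), -3.56 ± 0.35 (adjusted p = 3.80e-04) and -3.09 ± 0.33 (adjusted p = 5.08e-04). LOC100158288 changed by -3.79 ± 0.45 (adjusted p = 8.54e-04) on a probe set that may read several transcripts, with NF32 replicate 1 at 699.5 beside 2278 and 2878.

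Markers of other neighbouring tissues changed beside these falls, and their part in them was not tested. Of 36 collagen, laminin and matrix genes, 5 were higher (13.9%) and 11 lower (30.6%), beside 17.5% and 13.6% of all genes. Of the falls, 6 were at least 2-fold. Without NF32 replicate 3, 4 were higher and 6 lower, beside 11.4% and 9.23% of all genes. The collagen VI genes col6a1.L and col6a2.L changed by -1.87 ± 0.25 (adjusted p = 0.00133) and -2.02 ± 0.21 (adjusted p = 5.00e-04) and lum.L, the matrix protein lumican, by -1.88 ± 0.25 (adjusted p = 0.00141). col1a1.S changed by -1.24 ± 0.37 (adjusted p = 0.0394), with the NF36 range from 207 to 627, and its call was lost in 6 of 7 fits that left out 1 array, with adjusted p up to 0.125 without NF32 replicate 2. tnc.L, tenascin, changed by 1.08 ± 0.20 (adjusted p = 0.00566). Of 8 notochord, cement gland and hatching gland markers, 1 was higher and 4 lower. The cement gland gene agr2.L read 115, 102 and 159.8 on the NF32 arrays and 29, 17.4, 14.3 and 28.3 on the NF36 arrays and changed by -1.89 ± 0.19 (adjusted p = 3.82e-04), agr2.S changed by -1.13 ± 0.15 (adjusted p = 0.00126), and ag1.L by -1.20 ± 0.19 (adjusted p = 0.00304), while ag1.S changed by 1.11 ± 0.24 (adjusted p = 0.0111) and its other probe set by 0.65, not past the threshold. col2a1.L, a notochord and cartilage collagen, changed by -1.35 ± 0.28 (adjusted p = 0.00934) on a probe set that may read several transcripts.

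Lists of other tissues that the dissection could hold had calls in both directions, where 17.5% of all genes were higher and 13.6% lower. With all 7 arrays, the neuronal list, at 16.3% and 9.3%, and the skeletal muscle list, at 10.8% and 5.41%, did not exceed these shares. Of 43 neuronal markers, 7 were higher and 4 lower (5 and 2 without NF32 replicate 3), with summed intensity of 835 to 977.5 at NF32 and 847.1 to 948.1 at NF36. ncam1.L, a neural adhesion molecule, changed by 0.93 ± 0.09 (adjusted p = 4.37e-04) and syt1.L, a vesicle release protein, by -1.30 ± 0.14 (adjusted p = 4.95e-04). Of 37 skeletal muscle markers, 4 were higher and 2 lower, and 2 were higher without NF32 replicate 1 or 2. Without NF32 replicate 3, 10 of the 37 were higher and 1 lower. That share higher exceeded the 11.4% of all genes without this array. The master factor genes myod1.S and myod1.L changed by 0.73 ± 0.08 (adjusted p = 6.07e-04) and 0.58 ± 0.08 (adjusted p = 0.00151), but both were dim. myod1.S had means of 10.03 at NF32 and 27.22 at NF36. myod1.L had means of 1.362 and 9.854, under the offset of 16 at both stages. Of 28 heart and smooth muscle markers, 3 were higher and 5 lower (1 and 4 without that array, 1 higher without NF32 replicate 1), acta2.L at -1.42 ± 0.32 (adjusted p = 0.0135) and nkx2-5.S, a heart homeobox factor, at -0.99 ± 0.16 (adjusted p = 0.00341) among them. Of 25 red blood cell markers 1 was higher and 2 lower (1 and 1 without it), of 18 granulocyte and macrophage markers 4 and 2 (0 and 2, and 0 to 4 higher over the 7 fits that left out an array), of 12 endothelial markers 4 and 2 (3 and 2) and of 9 pronephros markers 5 and 1 (2 and 1, and 3 higher without NF32 replicate 2). mpo.S, myeloperoxidase, changed by -1.28 ± 0.16 (adjusted p = 0.0011), sox7.L, an endothelial factor, by -1.05 ± 0.12 (adjusted p = 7.00e-04), pecam1.L, an endothelial adhesion protein, by 0.66 ± 0.08 (adjusted p = 7.64e-04) and cdh16.L, a kidney cadherin, by 0.98 ± 0.10 (adjusted p = 5.40e-04).

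**Figure D5:**
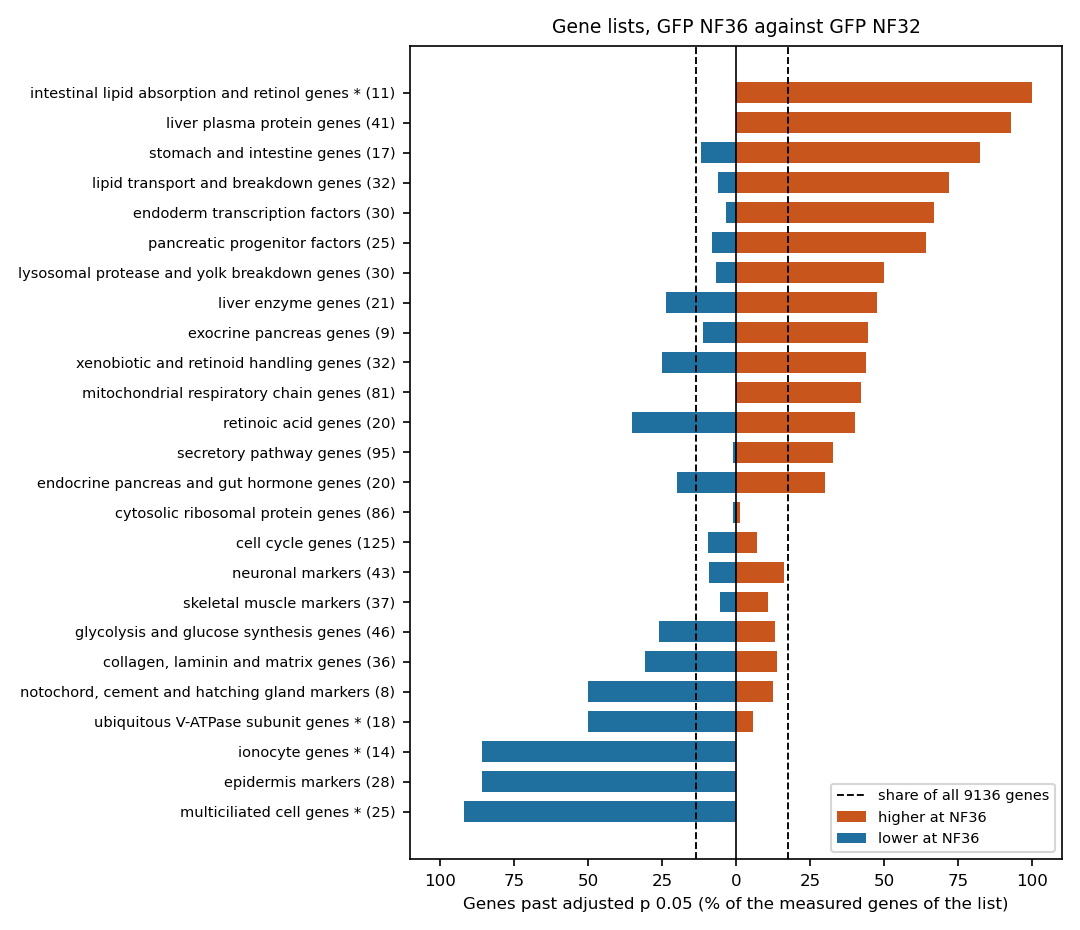
Share of the measured genes of 25 lists called higher (right) or lower (left) at NF36 (horizontal axis in percent, number of measured genes in brackets). Dashed lines are the shares of all 9136 genes, 17.5% higher and 13.6% lower. Lists marked with an asterisk were chosen after values were seen, and the other lists with earlier results of these data known.

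The glycolysis, splicing and ribosome biogenesis lists had more falls than rises, with small median changes of -0.179, -0.119 and -0.116. Their shares lower were 26.1%, 21.9% and 20.6%, beside 13.6% of all genes. Without NF32 replicate 3, 8 of 73 splicing and 7 of 63 ribosome biogenesis genes were lower, beside 9.23% of all genes. Of 46 glycolysis and glucose synthesis genes, 6 were higher and 12 lower, and 5 and 8 without NF32 replicate 3 and 7 lower without NF32 replicate 2. ldhb.S, lactate dehydrogenase B, read 1054, 1585 and 1776 on the NF32 arrays and 368, 267, 252 and 303 on the NF36 arrays and changed by -2.23 ± 0.19 (adjusted p = 2.34e-04). pfkp.L, a phosphofructokinase, changed by -2.14 ± 0.20 (adjusted p = 3.30e-04), gapdh.S by -1.45 ± 0.13 (adjusted p = 2.44e-04), and in the other direction gpi.S by 0.65 ± 0.13 (adjusted p = 0.00829) and pgk1.L by 0.57 ± 0.07 (adjusted p = 0.00121). Of 73 splicing factor and hnRNP genes, 3 were higher and 16 lower (1 and 8 without NF32 replicate 3, 8 lower without NF32 replicate 1), with snrpd3.L, a core spliceosome protein, at -0.98 ± 0.18 (adjusted p = 0.0056). Of 63 ribosome biogenesis genes, 2 were higher and 13 lower (1 and 7 without NF32 replicate 3, 7 lower without NF32 replicate 1 and 8 without NF36 replicate 3). wdr43.L, a factor of small subunit assembly, changed by -1.22 ± 0.20 (adjusted p = 0.00364) while its copy wdr43.S changed by 0.55 ± 0.14 (adjusted p = 0.024). wdr43.S was past the threshold in 4 of 7 fits that left out 1 array, with adjusted p up to 0.0861 without NF32 replicate 3. Of 125 cell cycle genes, 9 were higher (7.2%) and 12 lower (9.6%), below the 17.5% and 13.6% of all genes. Leaving out any 1 array gave 2 to 8 higher and 1 to 7 lower. Among the called genes, ect2.S, a regulator of cytokinesis, changed by 0.98 ± 0.06 (adjusted p = 9.55e-05) and ccne1.L, cyclin E, by -0.57 ± 0.12 (adjusted p = 0.0118). Of 86 cytosolic ribosomal protein genes, 1 was higher and 1 lower (0 and 1). Of 52 proteasome subunit genes, 9 were higher and 2 lower (2 and 2 without NF32 replicate 3, 4 higher without NF36 replicate 2). The proteasome share higher, 17.3%, was near the 17.5% of all genes.

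Patterning, signalling and stress lists had calls in both directions, where 17.5% of all genes were higher and 13.6% lower. The Hox list, at 17.6% and 11.8%, and the Notch list, at 19% and 9.52%, lay near these shares. The heat shock list was at 21.3% and 6.38%, and the immune list at 10.7% each way. Of 17 Hox genes, 3 were higher and 2 lower (1 and 1 without NF32 replicate 3), hoxc6.S at 0.93 ± 0.12 (adjusted p = 0.00113) and hoxa3.S at -0.60 ± 0.08 (adjusted p = 0.00166). Of 21 Notch pathway genes, 4 were higher and 2 lower (1 and 1 without NF32 replicate 3, and 1 to 3 higher over the 7 fits that left out an array). The ligand jag1.L was at -0.47 ± 0.10 (adjusted p = 0.0111) and the target hey1.S at -0.68 ± 0.17 (adjusted p = 0.022). hey1.S was past the threshold in 3 of the 7 fits, with adjusted p up to 0.0765 without NF32 replicate 3. Of 47 heat shock and immediate early genes, 10 were higher and 3 lower, but leaving out any 1 array gave 3 to 8 higher and 3 to 6 lower, hspe1.L, a mitochondrial chaperonin, at 0.61 ± 0.08 (adjusted p = 0.00166) and dusp6.L, a MAP kinase phosphatase, at -0.73 ± 0.09 (adjusted p = 9.70e-04). Of 28 immune genes, 3 were higher and 3 lower (7 lower without NF36 replicate 1), cxcr4.L, a chemokine receptor, at 0.96 ± 0.09 (adjusted p = 3.86e-04) and ptgs2.S, prostaglandin synthase, at -1.42 ± 0.16 (adjusted p = 7.34e-04). Of 7 lung and thyroid genes, 2 were higher and 1 lower (1 higher without any 1 of the NF32 arrays). slc5a5.L, the iodide carrier, was at 1.01 ± 0.21 (adjusted p = 0.00976) and irx3.L at -0.81 ± 0.12 (adjusted p = 0.002). nkx2-1.L, a lung and thyroid factor, was at 0.63 ± 0.17 (adjusted p = 0.0281). It was past the threshold in 3 of 7 fits that left out 1 array, with adjusted p up to 0.0878 without NF32 replicate 1. Of 8 Hedgehog genes 0 were higher and 1 lower, of 22 cell cycle exit and p53 genes 2 and 2, of 18 sterol synthesis genes 3 and 1 (2 and 0), and of 9 yolk and maternal genes 4 and 0 (3 and 0).

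Copies and unnamed probe sets gave a further view. Of 1570 gene pairs with both copies measured, both copies passed the threshold in 220, in the same direction in 194 of these (88.2%) and in opposite directions in 26, and exactly 1 copy passed in 544. Of 349 genes with 2 or more probe sets past the threshold, 313 had all of them in the same direction. Of 22251 probe sets, 10049 have no gene symbol in the annotation, and the 2 largest changes of unnamed probe sets in each direction were as follows. Xl2.21513.1.S1_at rose from a mean of 63.8 to 849 (log2 change 3.60), Xl2.47377.1.S1_at from 10.6 to 316 (3.59). Xl2.6005.1.S1_at fell from 1229 to 98.7 (-3.41), and Xl2.55019.1.S1_at from 1287 to 107 (-3.42).

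Whether the stage change differed in embryos that received Ptf1a was tested as a contrast of the 2 stage changes over all 14 arrays, which uses the same GFP arrays as the change above. Over 9136 genes, 31 (0.339%) changed more positively and 25 (0.274%) more negatively with Ptf1a, and over probe sets 117 passed the threshold. With the replicate number as a block within each stage, 1012 probe sets passed. The series text says that control and Ptf1a samples came from one batch of embryos. The sample labels name no batch, so pairing by replicate number is an assumption. Without the block, leaving out 1 array gave from 16 (without GFP NF32 replicate 2) to 287 (without Ptf1a NF36 replicate 1). Of the epidermis markers 3 fell less with Ptf1a. krt12.5.S changed by -2.62 in GFP and -1.21 in Ptf1a embryos, a difference of 1.41 ± 0.21 (adjusted p = 0.0168). krt12.4.S changed by -1.83 in GFP and -0.48 in Ptf1a embryos, a difference of 1.35 ± 0.26 (adjusted p = 0.0435) and grhl3.S by -2.12 in GFP and -1.06 in Ptf1a embryos, a difference of 1.05 ± 0.17 (adjusted p = 0.0226). Of 43 neuronal markers, 10 changed more negatively with Ptf1a. tubb3.L, a neuronal tubulin, changed by 0.54 in GFP and -1.47 in Ptf1a embryos, a difference of -2.004 ± 0.22 (adjusted p = 0.00543). The tubb3.L mean was 164.5 at NF32 and 49.48 at NF36 in Ptf1a embryos, and 17.98 and 33.49 in GFP embryos. In this paragraph Ptf1a means are normalized over 14 arrays and GFP means over 7. Of the pancreatic genes, nkx6-2.L rose by less with Ptf1a, 2.69 in GFP and 1.22 in Ptf1a embryos, a difference of -1.47 ± 0.18 (adjusted p = 0.00755). The endocrine genes cpe.L and pcsk2.L rose in GFP and fell in Ptf1a embryos. cpe.L changed by 0.64 in GFP and -0.30 in Ptf1a embryos, a difference of -0.94 ± 0.18 (adjusted p = 0.0413). pcsk2.L changed by 0.39 in GFP and -0.21 in Ptf1a embryos, a difference of -0.61 ± 0.12 (adjusted p = 0.0413). cpe.L means were 45 at NF32 and 34.17 at NF36 in Ptf1a embryos, and 15.86 and 34.05 in GFP embryos. Those of pcsk2.L, all under the offset of 16, were 6.39 and 3.196 in Ptf1a embryos and 1.224 and 6.816 in GFP embryos. ctse.L rose less, 2.83 in GFP and 1.07 in Ptf1a embryos, a difference of -1.76 ± 0.26 (adjusted p = 0.0168), and ldhb.S fell less, -2.24 in GFP and -0.62 in Ptf1a embryos, a difference of 1.61 ± 0.25 (adjusted p = 0.0186).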

How the data were processed

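Total RNA of dissected anterior endoderm was hybridised to Affymetrix arrays. The deposited values are linear intensities per probe set, and PLIER is listed in the submitters' processing notes, without its role or version. The NF32 arrays had deposited means of 140.21 to 140.36 and the NF36 arrays of 100, so the 7 arrays were quantile normalized over the 22251 probe sets with values on all 14 arrays. Another 604 probe sets have values at NF32 alone and 1363 at NF36 alone, and were not compared. Values under 16 made up 14.8 to 15.1% of deposited values at NF32 and 26.9 to 27.5% at NF36, and the number of arrays limits the precision.

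log2(intensity + 16) was modelled per probe set as NF36 minus NF32 with the moderated test of limma 3.58.1 (R 4.3.3), and p-values were adjusted by Benjamini-Hochberg across the 22251 probe sets, with a threshold of 0.05. Of these, 11972 have 1 gene symbol, 230 several and 10049 none, and each gene was read by its brightest probe set. The fit was tested on simulated data. Of 100 probe sets changed by 1 on the log2 scale 82% were recovered and of 100 changed by 2, 95%, with 11 false calls. The simulated noise was independent between arrays, with no batch and no deviating array, and far fewer probe sets changed than passed here. These figures therefore check the fit and do not give the error rates of this comparison. For 3 against 4 arrays the smallest two-sided exact permutation p is 0.0571, so single values were not tested that way.

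The members and lists were chosen with earlier results of these data known, and the ionocyte, multiciliated cell, V-ATPase and intestinal lipid lists after their values were seen. Named genes were the 20 largest rises and 20 largest falls without overlap between groups, up to 6 members of each list per direction, all pancreas list members with the other copies of named genes, the 8 largest differences between Ptf1a and GFP stage changes per direction, and in each direction at most 2 probe sets lacking a symbol. Exceptions are named as such. Alternatives changed the scaling, the offset, the filter on dim probe sets, the model and the arrays used. Same-numbered arrays of the 2 stages did not deviate together (correlations of -0.044, -0.0146 and 0.0104). With so few arrays this cannot decide if the numbers pair them, and the main fit did not pair them.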

Additional observations from a re-analysis of the deposited data

Results flagged for a closer look

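A set of 229 genes was checked one by one, and not all of them are described above. Of these, 15 had an NF36 array whose gap to the nearest of the other 3 exceeded Dixon's 95% critical value. Chance alone marks about 1 in 20 groups. The arrays, with normalized intensity, were acsl1.L on NF36 replicate 1 (310), apoa4.L on NF36 replicate 3 (615), cel.2.S on NF36 replicate 2 (28.5), chga.L on NF36 replicate 3 (19.4), col1a1.S on NF36 replicate 3 (627), foxa4.L on NF36 replicate 2 (16.6) and gata5.S on NF36 replicate 3 (386). The others were gata6.L on NF36 replicate 3 (223), grhl3.S on NF36 replicate 3 (10.4), hoxa3.S on NF36 replicate 4 (98.6), pax6.L on NF36 replicate 2 (3.64), rbpj.S on NF36 replicate 4 (169), snrpd3.L on NF36 replicate 1 (147), syt4.L on NF36 replicate 2 (4.33) and tnc.L on NF36 replicate 1 (63).

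The stage change differed between Ptf1a and GFP embryos, by limma's test of that difference (adjusted p under 0.05 for each), for 23 of the 229 genes. Many of these 23 were put among the 229 for the size of this difference, so their passing follows from the choice. The count therefore does not give the share of genes that differ. Over all 9136 genes, 31 (0.339%) changed more positively and 25 (0.274%) more negatively with Ptf1a. The Ptf1a change minus the GFP change on the log2 scale was positive for LOC398451 (1.57), MGC84752 (1.54), atp12a.L (1.63), capn9.L (1.27), gnb3.L (1.16), grhl3.S (1.05), hspb7.L (2.04), krt12.4.S (1.35), krt12.5.S (1.41), ldhb.S (1.61), mmp3.L (1.77), myh6.S (3.31) and trim29.L (1.58). It was negative for cpe.L (-0.94), ctse.L (-1.76), dpysl3.L (-1.60), dpysl3.S (-1.70), elavl4.L (-1.92), nkx6-2.L (-1.47), pcsk2.L (-0.61), prph.S (-1.98), thbs4.S (-1.94) and tubb3.L (-2.004). These differences use the same GFP arrays as the stage change.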

How the results depend on the processing

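No alternative reversed any of the 229 genes checked one by one. Of the 193 past the threshold 142 stayed past it in every alternative and 170 in every fit without 1 array. Many of these genes were named for large changes past the threshold, so these counts do not give the share of all calls that hold. Over probe sets, 3455 were higher and 3035 lower at NF36. Leaving out the 40% dimmest probe sets, which tests fewer, gave 2302 and 1818, and 446 lower by 2-fold. Leaving out 1 array gave 2183 (without NF32 replicate 3) to 3115 higher and 2111 to 2948 lower. At least 2-fold, 394 were higher and 670 lower, against 881 and 1208 with an offset of 1 and 171 and 243 with an offset of 64, which by construction widens or shrinks the change of dim probe sets. With the replicate number as a block 1860 were higher and 1780 lower, though it is not known if the numbers pair these arrays. For the difference between Ptf1a and GFP stage changes, 117 probe sets passed, against 65 with an offset of 64, 39 without dim probe sets, 1012 with the replicate block and 16 to 287 with 1 array left out, and the cause was not tested. The median change of the neuronal list was 0.0465 and turned to -0.0175 under mean scaling, and that of the endocrine list to -0.08. In all, 11 of 42 list medians changed sign in at least 1 alternative, none of them larger than 0.12 in size as reported. Dim genes near the offset limit what can be read from pancreas genes.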

Other observations

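Some probe sets have deposited values at NF36 alone, so they enter no comparison. Of 1363 such probe sets, 15 had a GFP mean above 50 in deposited intensity, and of 604 with values at NF32 alone 0 did. gsta1.L, a glutathione transferase, was at 167.9, 286.8, 195.7 and 195.4 on the NF36 arrays. tm4sf4.L, a membrane protein on the endocrine list, was at 59.1, 63.4, 33.6 and 34.7. proc.S, the plasma anticoagulant protein C, was at 59.7, 82, 63.6 and 55.

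At each stage 32 probe sets had deposited values of 2 or less on some arrays and 50 or more on others of the same group. cfi.L, complement factor I, was at 1.2, 0.9, 78.8 and 92.3 on the NF36 arrays.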
